A study of Mus musculus with 24 samples.

Results

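RNA of mouse prostate organoids fed with dihydrotestosterone (DHT, a potent androgen) was compared with RNA taken directly from the lobe of the prostate the organoids came from. Of the 24 libraries of the series, 15 enter the comparison: all 6 tissue libraries and all 9 organoid libraries whose titles carry the plus-DHT label, with the genotype label as a covariate. The tissue libraries hold 2 each of wild type (WT), Brca1+/- (HET) and Brca1-/- (KO), and the organoid libraries hold 3 of each. Brca1 encodes a protein of homologous recombination repair. Tissue RNA came from whole anterior lobes. Organoids came from anterior lobes of 3-month-old mice, which were digested with collagenase type II and seeded in Matrigel as single cells. All organoid groups shared a medium that held EGF, Noggin (an antagonist of BMP signals), R-Spondin (an agonist of Wnt signals), A83-01 (an inhibitor of TGF-beta receptors), Y27632 (a kinase inhibitor), N-acetylcysteine, B27, GlutaMAX and antibiotics in advanced DMEM/F12. The labels do not give the strain, the promoter behind the Brca1 deletion, the deleted part of the gene, the age of the tissue donors or the number of passages. Nor do they tell if each replicate was an animal or culture of its own, and the p-values rest on the spread between these libraries, which may be technical. Because material, medium and handling changed together, their shares in any difference cannot be told apart.

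The prostate gland is lined by luminal cells, which secrete the proteins of seminal fluid, and by basal cells, which sit on the basement membrane and can renew the epithelium. Around the glands lie smooth muscle, fibroblasts, vessels, nerves and leukocytes, and the stromal cells supply many of the growth factors that the epithelium receives. Androgen acts on stroma and on luminal cells, where it drives the secretory genes. Organoid culture keeps epithelial cells that can grow in a gel, with growth factors supplied by the medium.

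The tissue libraries differed from each other more than the organoids did. Replicate correlations across genes were 0.888, 0.922 and 0.978 in WT, HET and KO tissue and 0.983 to 0.997 in organoids. Totals were 30895270 to 46222580 estimated reads in tissue and 11965815 to 47622489 in organoids, where the smallest library, organoid WT 1, gave 28.1% of its reads to the single gene Lars2. The main principal component (72.6% of the variance of log2 CPM) separated the materials, and the second (8.23%) set tissue WT 2 apart. Genes of the seminal vesicle, a gland that lies against the anterior lobe, took 13.9% of reads in tissue WT 2 and 4.44% in tissue HET 1, against 0.000321 to 0.00142% in the other 4 tissue libraries. Tissue WT 2 also gave only 0.520% of its reads to pan-epithelial genes, against 1.42 to 1.70% in the other tissue. These 2 libraries are therefore left out in a second fit, and its values are given below beside the lists and genes described where they differ most. Brca1 RNA, at 1.93, 2.89 and 3.75 CPM in tissue and 10.2, 14.2 and 19.2 CPM in organoids (lowest, median and highest library), did not fall in step with the genotype labels. In tissue WT (2.79 to 3.75 CPM), HET (2.64 to 2.98 CPM) and KO (1.93 to 3.38 CPM) overlapped; in organoids KO (10.2 to 12.4 CPM) lay below WT (14.02 to 15.2 CPM) and HET (15.6 to 19.2 CPM) above it. As the deleted part is not given, reads outside it check nothing. CPM are counts scaled to the library's total reads with TMM factors. The rise of Brca1 in organoids was 2.30 (SE 0.16, adjusted p = 1.4e-08) on the log2 scale (gene at chr11:101488764-101551955), and directions by genotype rest on the labels.

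Of 17626 genes tested with edgeR's quasi-likelihood test, 5708 (32.4%) were higher and 7416 (42.1%) were lower in organoids at a Benjamini-Hochberg adjusted p below 0.05, so 74.5% of all genes passed in either direction. All adjusted p-values below come from this test. The median difference of all genes was -0.20 on the log2 scale. More falls than rises were large: 3322 genes (18.8%) were called and at least 4-fold lower, and 1288 (7.31%) were called and at least 4-fold higher. For 5401 genes (30.6%) the 95% interval of the difference lay inside 2-fold in both directions, and such genes are called kept below. A kept gene may also have passed the test as higher or lower. In 3742 genes (21.2%) every organoid library was above every tissue library, and in 4229 (24.0%) every one was below. Because so many genes passed, the count of a gene list says little by itself. Each count is to be read against these shares and the median of all genes. Members of a list with too few reads in both materials were not tested, and a member read in only 1 material had to differ. A log2 difference is organoids minus tissue throughout. Scaling to library totals in place of TMM moved the median of all genes by -0.27, and scaling to 23 pan-epithelial genes moved it by -0.61. The share of calls that were higher was then 33.4% and 21.8%, against 43.5% here.

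**Figure D1:**
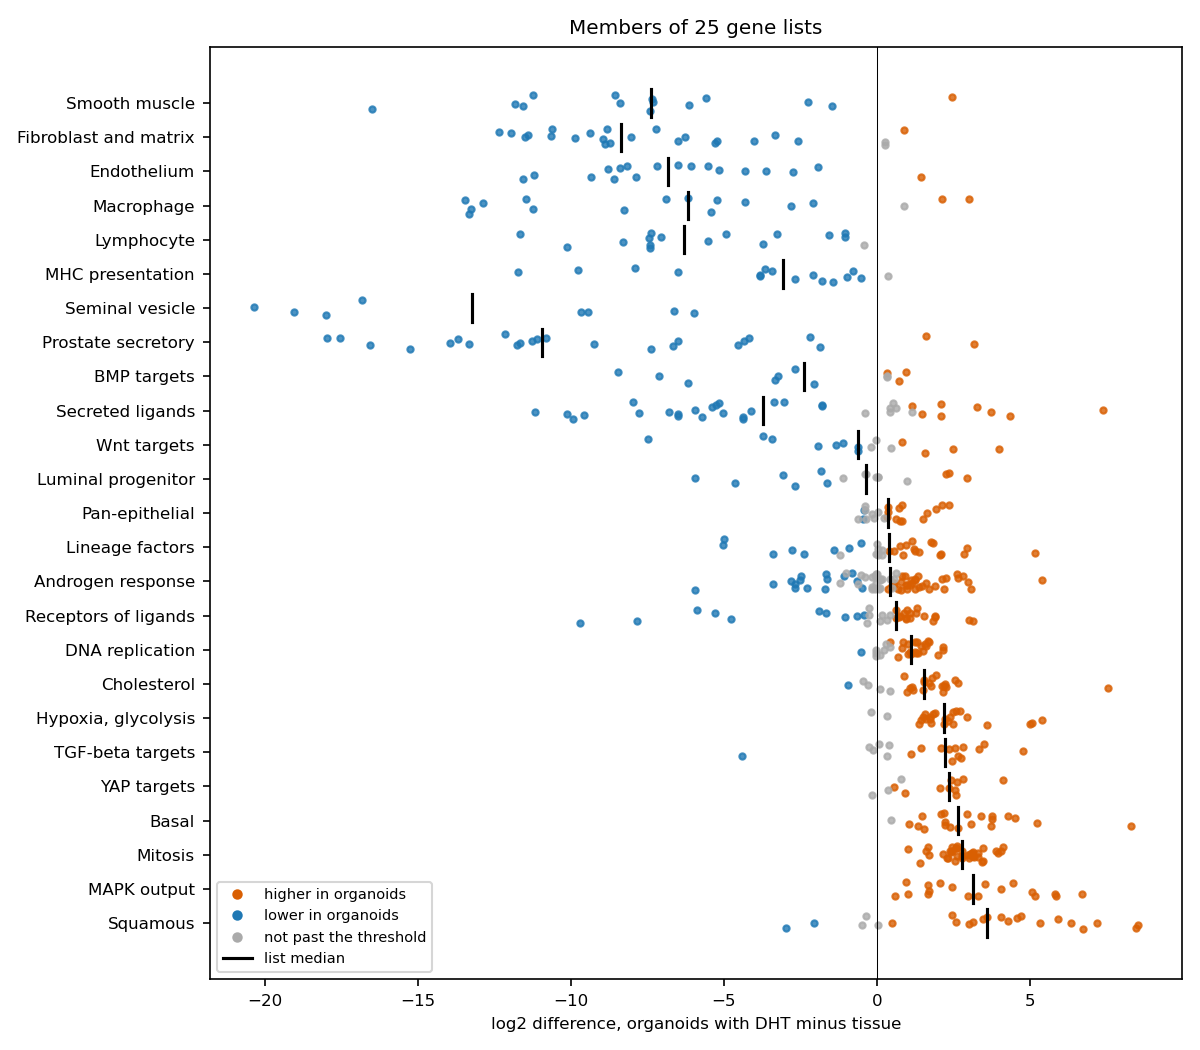
Each point is a tested member of a gene list, at its log2 difference (organoids with DHT minus tissue) on the x axis, coloured by its call; black bars are list medians. The smooth muscle, fibroblast, endothelial, macrophage, secretory and seminal vesicle lists sit far to the left, with medians from -6.18 (macrophage) to -13.24 (seminal vesicle), while the MAPK, mitosis and squamous lists sit to the right, with medians of 3.14, 2.77 and 3.61. Medians of the pan-epithelial, lineage factor and androgen response lists are 0.35, 0.39 and 0.41 and turn negative when libraries are scaled to pan-epithelial genes.

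The stroma of the lobe was nearly gone from the organoid libraries. Of 14 smooth muscle genes 13 fell and 1 rose, with a median difference of -7.40. Their summed level was 519, 1812 and 6439.5 CPM (lowest, median and highest library) in tissue and 250.1, 279 and 295 CPM in organoids. Acta2, the smooth muscle actin, stood at 70.9, 361 and 1120.2 CPM in tissue and 0.469, 0.828 and 4.29 CPM in organoids (log2 difference -8.40, SE 0.59, adjusted p = 1.7e-08). Myh11, the smooth muscle myosin heavy chain, stood at 124, 266 and 1422 CPM in tissue and 0.0687, 0.117 and 0.320 CPM in organoids (log2 difference -11.23, SE 0.59, adjusted p = 9.8e-10). The intermediate filament gene Des, at 25.9, 266 and 540.0 CPM in tissue, had no read in any organoid library, which makes it at least 33709-fold lower with 3 reads over the 9 libraries as the floor. No organoid library overlapped a tissue library for any of these 3 genes. The one member that rose was Smtn, which encodes smoothelin: it stood at 17.1, 41.1 and 77.5 CPM in tissue and 225, 247 and 267 CPM in organoids (log2 difference 2.44, SE 0.29, adjusted p = 2.7e-06) and made up most of the organoid sum. In tissue the smooth muscle sum was lowest in HET 1 and highest in WT 2.

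Fibroblast and matrix genes showed the same direction. Of 24, 21 fell and 1 rose (Twist2, a transcription factor of mesenchyme, 0.88, SE 0.27, adjusted p = 0.008), with a median of -8.38. Their summed level fell from 499, 635 and 1138 CPM in tissue to 47.7, 60.1 and 78.5 CPM in organoids. The fibrillar collagen gene Col1a1 went from 57.4, 79.6 and 125 CPM to 0.302, 0.550 and 0.867 CPM (log2 difference -7.21, SE 0.17, adjusted p = 1.7e-12), and Col3a1 from 42.1, 55.00 and 168 CPM to 0, 0.0229 and 0.172 CPM (log2 difference -10.67, SE 0.43, adjusted p = 8.6e-11). Postn, a matricellular protein gene, had 1 read over all organoid libraries, a ratio of 10583-fold (95% interval 1899 to 418056) by counting error alone, and the elastic fibre gene Mfap4 had none (at least 1038-fold lower). Other members kept a measurable level: the proteoglycan gene Dcn was read at 88.9, 118 and 177 CPM in tissue and 9.13, 24.8 and 40.00 CPM in organoids (log2 difference -2.59, SE 0.28, adjusted p = 1.2e-06). Fbln1 and Cd34 were kept, with log2 differences of 0.26 (SE 0.23) and 0.28 (SE 0.14). In a bulk library, fewer cells of a type and less RNA per cell cannot be told apart.

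Vessel genes left the same picture. Of 18 endothelial genes 17 fell, with a median of -6.85 (-6.59 with genes at 0 set to their bound). Cdh5, the cadherin of endothelial junctions, at 8.41, 9.73 and 10.9 CPM in tissue, had no read in organoids (at least 1080.4-fold lower), and Kdr, a receptor for VEGF, went from 7.88, 8.87 and 10.8 CPM to 0, 0 and 0.0776 CPM (log2 difference -8.81, SE 0.43, adjusted p = 4.7e-10). A second VEGF receptor gene, Flt1, was the exception and rose from 10.8, 14.1 and 15.1 CPM to 28.3, 35.4 and 45.1 CPM (log2 difference 1.43, SE 0.10, adjusted p = 1.6e-08). Of 7 pericyte genes 6 fell, among them Pdgfrb (log2 difference -7.85, SE 0.53, adjusted p = 1.2e-08), while the receptor gene Notch3 rose (log2 difference 0.69, SE 0.30, adjusted p = 0.048; 0.17 when scaled to pan-epithelial genes), a call lost when most of the single libraries were left out in turn. All 9 adipocyte genes fell (median -7.11, or -7.00 with bounds). Of 10 tested of 11 Schwann cell and nerve genes, 7 fell and 2 rose (Erbb3 and Mbp, which are read in many cell types). The glial transcription factor gene Sox10 was at 0.0969, 0.262 and 1.42 CPM in tissue and 0, 0 and 0.0640 CPM in organoids (log2 difference -4.59, SE 0.80, adjusted p = 1.2e-04). Of 7 tested of 10 neuroendocrine genes 4 fell and 2 rose, and Chga, the granule protein of neuroendocrine cells, went from 0.582, 6.02 and 29.98 CPM to 0, 0.0226 and 0.138 CPM (log2 difference -7.73, SE 1.03, adjusted p = 9.5e-06). These lists are markers of cells the tissue holds beside epithelium, and their part in the differences of other genes was not tested.

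**Figure D2:**
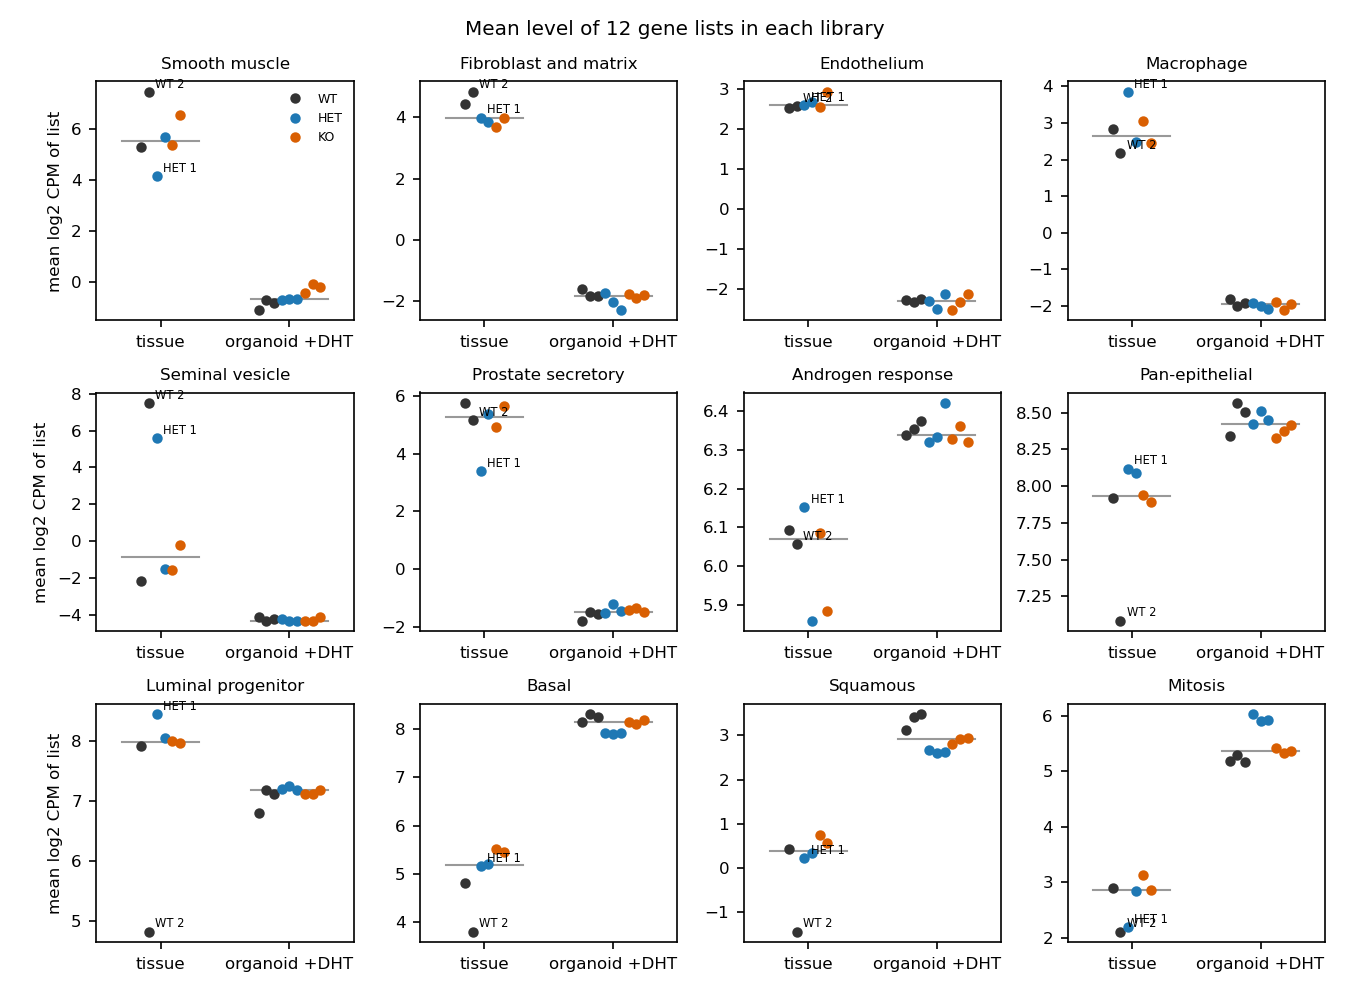
Each point is the mean log2 CPM (y axis) over a gene list in 1 library, for 6 tissue and 9 organoid libraries coloured by genotype label; grey bars are medians. The stromal, endothelial, macrophage and secretory lists are lower in every organoid library than in every tissue library, and the basal, squamous and mitosis lists are higher in every organoid library; tissue WT 2 is the lowest tissue library for pan-epithelial, luminal progenitor, basal and squamous genes, and the seminal vesicle list is high in WT 2 and HET 1.

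Leukocyte genes fell with the stroma. Of 17 macrophage genes 14 fell (median -6.18). The complement genes C1qa, C1qb and C1qc and the lysozyme gene Lyz2 had no read in any organoid library. C1qa stood at 18.8, 29.9 and 48.8 CPM in tissue, so it was at least 3506-fold lower, and Lyz2 at 21.1, 30.9 and 69.05 CPM, at least 4082-fold lower. Cd68, a lysosomal protein gene of macrophages, rose from 4.71, 7.23 and 11.2 CPM to 46.8, 54.97 and 80.8 CPM (log2 difference 2.996, SE 0.15, adjusted p = 4.7e-10), and S100a9 rose at a low level (log2 difference 2.13, SE 0.72, adjusted p = 0.015). Of 16 tested of 17 lymphocyte genes 15 fell, with a median of -6.30 (-5.56 with bounds). Their summed level was 26.6, 33.4 and 106 CPM in tissue, highest in HET 1, and 1.21, 2.33 and 3.63 CPM in organoids. Ighm, the heavy chain of IgM, was at 5.82, 8.16 and 19.2 CPM in tissue and had no read in organoids (at least 1186-fold lower), though immunoglobulin reads can be split among similar segments. All 5 tested of 7 mast cell genes fell (median -8.87, or -7.52 with bounds), and of 7 tested of 12 skeletal muscle genes 6 fell and 1 did not pass.

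Genes that present antigens fell to different degrees by class. The 7 genes of MHC class II, which present peptides to CD4 T cells, all fell with a median of -6.52: Cd74, the invariant chain, went from 123, 161 and 686 CPM to 0.669, 0.837 and 1.30 CPM (log2 difference -7.91, SE 0.32, adjusted p = 9.4e-11) and its activator Ciita from 1.63, 2.27 and 18.8 CPM to 0, 0.0229 and 0.124 CPM (log2 difference -6.52, SE 0.60, adjusted p = 2.4e-07). Of 8 genes of MHC class I and of peptide loading, 7 fell with a median of -1.20. B2m, the light chain of class I, stood at 2132, 3634 and 5634 CPM in tissue and 459.7, 543 and 813 CPM in organoids (log2 difference -2.68, SE 0.21, adjusted p = 5.7e-08). The heavy chain genes H2-K1 (log2 difference -0.98, SE 0.20, adjusted p = 5.0e-04) and H2-D1 (log2 difference -0.79, SE 0.18, adjusted p = 9.6e-04) fell less and overlapped between materials, where tissue WT 2 lay below all organoids while the other 5 tissue libraries lay above all of them. The peptide transporter gene Tap1 did not pass (log2 difference 0.35, SE 0.26, adjusted p = 0.23). Class II genes fell together with the macrophage markers above, and the part of those cells in the fall was not tested.

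Among the epithelial lists, the secretory genes of the prostate had the lowest median. Of 24, 22 fell and 2 rose, with a median of -10.96, and 5 of the 24 had no read in any organoid library. Their summed level was 1025, 8907 and 55411 CPM in tissue and 252, 312 and 360.0 CPM in organoids. Pbsn (chrX:77837901-77853623 in GRCm38), which encodes probasin, the androgen-dependent protein whose promoter drives many prostate transgenes, stood at 26.98, 2219.7 and 12012 CPM in tissue. Over the 9 organoid libraries it had 3 reads in all, a ratio of 337752-fold (95% interval 115572 to 1637794). The beta-defensin gene Defb50 went from 38.9, 1290.5 and 2304 CPM to 3 reads in all, a ratio of 142436-fold (95% interval 48738 to 690687). Rnase1, a secreted ribonuclease, went from 14.2, 648 and 900.2 CPM to 0.0226, 0.103 and 0.235 CPM (log2 difference -12.16, SE 0.77, adjusted p = 6.0e-09), and Azgp1, a secreted glycoprotein, from 71.4, 309 and 518 CPM to 0.117, 0.470 and 0.802 CPM (log2 difference -9.25, SE 0.43, adjusted p = 3.1e-10). The transglutaminase gene Tgm4 went from 1.26, 935 and 35078 CPM to 0.0492, 0.235 and 0.539 CPM (log2 difference -13.68, SE 1.58, adjusted p = 2.3e-06). In none of these 5 genes did an organoid library reach the lowest tissue library, although tissue itself spread over a wide range.

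Part of that range came from the tissue libraries that hold seminal vesicle reads. Msmb, a secreted protein of seminal fluid, was read at 329 to 1453 CPM in the other 4 tissue libraries, at 17.5 CPM in WT 2 and at 9.57 CPM in HET 1. Pbsn stood at 1474 to 3896 CPM in the other 4, at 12012 CPM in WT 2 and at 27.0 CPM in HET 1, so these 2 libraries lay on opposite sides. Leaving both out gave log2 differences of -17.66 for Pbsn, -15.96 for Msmb and -12.53 for Tgm4, and all 3 stayed called. Svs2, the main protein of the seminal vesicle, was read at 131700 CPM in WT 2 and 30920 CPM in HET 1, against 0.394 to 3.45 CPM in the other 4. Its fitted log2 difference of -20.37 rests on those 2 libraries, and it was -6.56 without them. All 8 tested of 9 seminal vesicle genes fell (median -13.24, or -12.08 with bounds).

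Other secretory and surface genes of luminal cells fell less far. The peptidase gene Mme stood at 144, 204 and 437 CPM in tissue and 0.567, 1.39 and 3.17 CPM in organoids (log2 difference -7.40, SE 0.24, adjusted p = 1.8e-11), Dpp4 at 51.1, 78.02 and 129.8 CPM in tissue and 2.34, 3.43 and 5.15 CPM in organoids (log2 difference -4.54, SE 0.20, adjusted p = 1.8e-10), and Cst3, which encodes the protease inhibitor cystatin C, at 137, 280.1 and 381 CPM in tissue and 41.4, 59.6 and 76.1 CPM in organoids (log2 difference -2.19, SE 0.19, adjusted p = 1.3e-07). Spink5, another protease inhibitor gene, fell by a smaller step that overlapped between materials through tissue WT 2 (log2 difference -1.85, SE 0.64, adjusted p = 0.018; -2.33 without WT 2 and HET 1), and it lost the call without tissue WT 1 or HET 2. Against the list's direction, Acpp, the gene of prostatic acid phosphatase, rose from 8.27, 12.1 and 47.9 CPM to 115, 138 and 210.2 CPM (log2 difference 3.17, SE 0.37, adjusted p = 2.9e-06), and Ceacam10 rose from 1.74, 3.15 and 5.04 CPM to 4.76, 12.96 and 15.6 CPM (log2 difference 1.60, SE 0.28, adjusted p = 1.4e-04). Members such as Mme and Cst3 were thus still read in every organoid library, while Pbsn, Defb50 and Msmb were at or near 0.

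**Figure D3:**
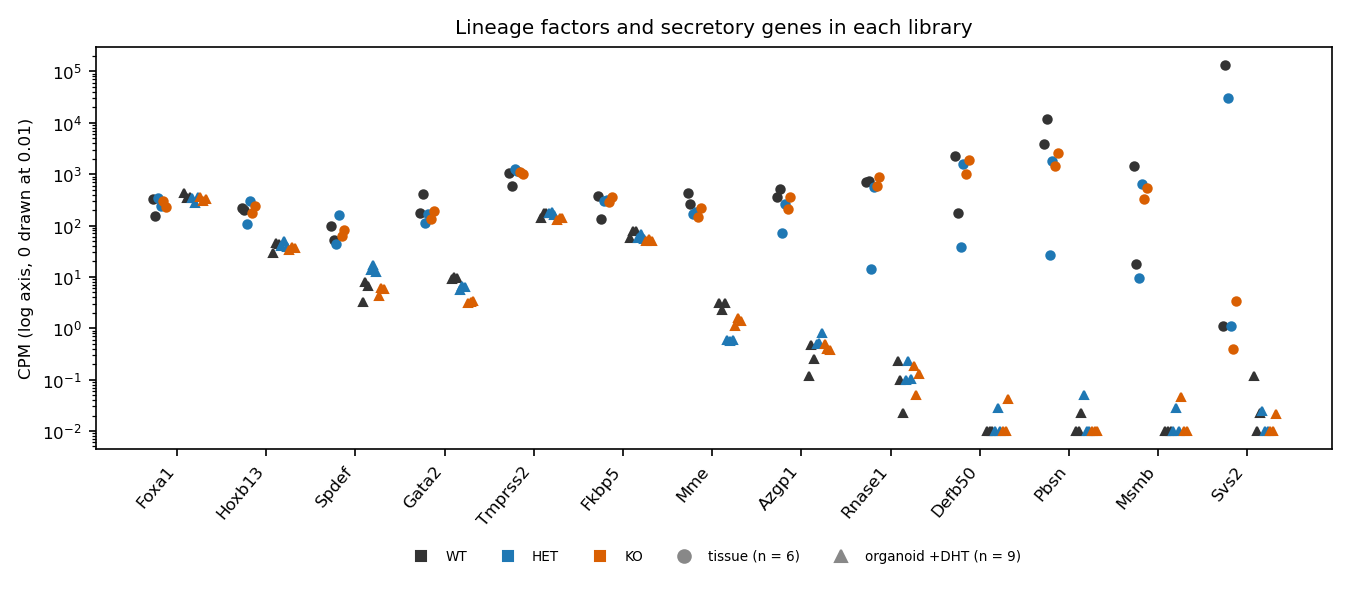
CPM of 13 genes in each library on a log axis, with tissue as circles, organoids as triangles, genotype label as colour and values of 0 drawn at 0.01. Foxa1 lies at like levels in both materials, Hoxb13, Tmprss2 and Fkbp5 are a few fold lower in organoids, Spdef, Gata2, Mme, Azgp1 and Rnase1 lower still, and Defb50, Pbsn and Msmb lie at or near 0 in all 9 organoid libraries.

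Among genes of steroid receptors, 4 fell and 1 rose. The estrogen receptor genes Esr1 (log2 difference -1.16, SE 0.18, adjusted p = 4.4e-05) and Esr2 (log2 difference -3.09, SE 0.29, adjusted p = 2.7e-07) and the mineralocorticoid receptor gene Nr3c2 (log2 difference -3.03, SE 0.22, adjusted p = 2.6e-08) fell without overlap. Nr3c2 went from 19.96, 31.1 and 59.5 CPM to 2.35, 4.61 and 6.29 CPM. The progesterone receptor gene Pgr, low in tissue at 0.0426, 0.221 and 0.582 CPM, had no read in organoids (at least 33.2-fold lower). Nr3c1, the glucocorticoid receptor gene, rose from 16.3, 24.4 and 45.3 CPM to 80.8, 95.9 and 113 CPM (log2 difference 1.75, SE 0.23, adjusted p = 8.7e-06).

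Enzymes that make or remove active androgen moved in both directions. Of 10 tested of 17, 3 rose and 6 fell. Srd5a1, a steroid 5-alpha reductase gene whose product turns testosterone into DHT, rose from 2.64, 6.64 and 25.2 CPM to 20.4, 77.2 and 82.4 CPM (log2 difference 2.77, SE 0.28, adjusted p = 6.1e-07), and the lowest organoid library lay below the highest tissue library. Srd5a3 fell (log2 difference -0.65, SE 0.09, adjusted p = 2.1e-05) and stayed within 2-fold. Cyp7b1, which removes metabolites of DHT and other steroids, rose from 0.740, 0.965 and 6.39 CPM to 9.98, 12.8 and 22.4 CPM (log2 difference 3.02, SE 0.41, adjusted p = 1.3e-05). Hsd11b2, which inactivates glucocorticoids, went from 0.115, 164 and 409.8 CPM to 0, 0 and 0.129 CPM (log2 difference -12.23, SE 1.16, adjusted p = 3.2e-07), and 1 tissue library overlapped the organoids.

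Genes of the general androgen response did not follow the secretory genes. Of 71 tested of 72, 33 rose, 15 fell and 23 did not pass, with 23 kept (32.4% of all genes rose, 42.1% fell and 30.6% were kept). The median was 0.41, and it was -0.30, with 21 higher and 30 lower, when libraries were scaled to pan-epithelial genes. Without tissue WT 2 and HET 1, 39 of 72 tested rose and 23 fell (median 0.59). Several genes that androgen induces in prostate epithelium fell: Fkbp5, a co-chaperone of steroid receptors, stood at 133, 309.6 and 368 CPM in tissue and 48.95, 57.5 and 77.3 CPM in organoids (log2 difference -2.29, SE 0.19, adjusted p = 1.1e-07). The membrane protease gene Tmprss2 stood at 598, 1064 and 1269 CPM in tissue and 129, 161 and 185 CPM in organoids (log2 difference -2.69, SE 0.14, adjusted p = 7.6e-10). The transcription factor gene Zbtb16 stood at 34.7, 44.6 and 66.5 CPM in tissue and 6.10, 7.82 and 12.5 CPM in organoids (log2 difference -2.50, SE 0.15, adjusted p = 2.9e-09), and the kinase gene Sgk1 at 337, 578 and 807 CPM in tissue and 149, 173 and 194 CPM in organoids (log2 difference -1.68, SE 0.14, adjusted p = 9.2e-08). In these 4 genes every organoid library was below every tissue library. The part of androgen in these falls, or of other steroids whose receptor genes changed above, was not tested. Other members were kept: Tpd52 by -0.054 (SE 0.12), Scd1 by -0.0031 (SE 0.19), Stk39 by 0.15 (SE 0.12) and Pmepa1 by 0.061 (SE 0.33).

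Several members that rose are also known for other responses. Ndrg1, which hypoxia induces too, rose from 18.8, 26.8 and 43.7 CPM to 939, 1189 and 1619 CPM (log2 difference 5.40, SE 0.20, adjusted p = 4.9e-11), Ccnd1, the cyclin D1 gene, from 60.04, 96.8 and 314 CPM to 796, 888 and 1027 CPM (log2 difference 2.97, SE 0.33, adjusted p = 1.8e-06), and the cholesterol synthesis gene Hmgcs1 is described below. In a fit of all 24 libraries, organoids with and without DHT can be set beside the same tissue. The 2 log2 differences share the tissue libraries and are given as values only. Fkbp5 was -2.28 with and -3.84 without DHT, Zbtb16 -2.49 and -4.54, Spink5 -1.84 and -3.88, and Mme -7.42 and -8.90. Tmprss2 was -2.69 and -3.06, and Hoxb13 -2.37 and -2.50. These 6 genes were chosen after their values were seen. Most members differed little: of 70 androgen response genes in that fit, 3 were higher with DHT than without by more than 1 log2 unit, none was lower by as much and 67 lay within 1 unit. Of 23 secretory genes, many with few or no reads in organoids, 4 were higher by more than 1 unit, 3 were lower and 16 lay within it. Acpp is not among the 23, because its name in the list differed from that in the annotation. These counts are descriptions with no test.

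Transcription factors of the prostate lineage moved in different directions. Of 31 tested of 32, 16 rose, 8 fell and 7 did not pass, and 9 were kept. The median of 0.39 became -0.17, with 10 higher and 13 lower, when scaled to pan-epithelial genes. Foxa1, a pioneer factor that opens chromatin in luminal cells, stood at 152, 268 and 344 CPM in tissue and 281, 339.6 and 425 CPM in organoids, a log2 difference of 0.39 (SE 0.16, adjusted p = 0.046) that passed the test, though not by DESeq2 or without any of several single libraries, tissue WT 2 among them, and stayed within 2-fold (-0.17 when scaled to pan-epithelial genes). Also kept were the epithelial factor genes Grhl2 (log2 difference -0.0008, SE 0.11), Ehf (log2 difference 0.031, SE 0.17), Gata3 (log2 difference 0.02, SE 0.21) and Sox9 (log2 difference -0.042, SE 0.30), and Hoxa13 (log2 difference 0.16, SE 0.17), which marks the lower urogenital tract.

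Gata2, Spdef and Hoxb13 were among the 8 lineage factor genes that fell. Gata2, a zinc finger factor, went from 112, 171 and 406 CPM to 3.16, 6.37 and 9.88 CPM (log2 difference -5.03, SE 0.22, adjusted p = 1.6e-10). Spdef, a factor of secretory cells, went from 43.5, 72.00 and 158 CPM to 3.28, 6.61 and 17.1 CPM (log2 difference -3.40, SE 0.28, adjusted p = 7.7e-08), and Hoxb13, the posterior Hox gene of the prostate, from 106, 206 and 296 CPM to 28.6, 38.2 and 50.5 CPM (log2 difference -2.37, SE 0.19, adjusted p = 5.2e-08). All organoid libraries were below all tissue libraries for these 3 genes. Among those that rose without overlap were Trp63, the basal cell regulator (13.8, 17.1 and 22.5 CPM to 96.2, 132 and 203 CPM; log2 difference 2.94, SE 0.17, adjusted p = 2.7e-09), Grhl3, a factor of barrier formation (0.0383, 1.32 and 3.83 CPM to 51.03, 57.2 and 78.7 CPM; log2 difference 5.15, SE 0.50, adjusted p = 4.4e-07), Hoxd13 (log2 difference 2.10, SE 0.11, adjusted p = 1.2e-09), Meis2 (log2 difference 2.84, SE 0.26, adjusted p = 1.9e-07) and Klf5 (log2 difference 1.21, SE 0.45, adjusted p = 0.025).

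General epithelial genes were mostly kept or higher. Of 23, 13 rose, 2 fell and 13 were kept, with a median of 0.35; scaled to library totals 7 rose and 6 fell, and scaled to themselves 5 rose and 10 fell. Without tissue WT 2 and HET 1, 14 rose and 5 fell. Their summed level was 6128, 12641 and 14065 CPM in tissue, lowest in WT 2, and 13626, 14313 and 15394 CPM in organoids. Cdh1, which encodes E-cadherin, stood at 366, 1321 and 2226 CPM in tissue and 1044, 1197 and 1389 CPM in organoids (log2 difference -0.086, SE 0.27, adjusted p = 0.78). Epcam, an epithelial adhesion gene, rose from 585, 909 and 1193 CPM to 1398, 1694 and 1794 CPM (log2 difference 0.83, SE 0.15, adjusted p = 1.7e-04). The luminal keratin genes Krt8 (log2 difference -0.39, SE 0.21, adjusted p = 0.11) and Krt18 (log2 difference 0.36, SE 0.13, adjusted p = 0.022) were both kept within 2-fold. Without tissue WT 2 and HET 1, Krt8 (log2 difference -0.69, adjusted p = 2.2e-06) and Krt19 (log2 difference -1.03, adjusted p = 7.0e-07) fell, whereas in the fit of all 15 libraries Krt19 did not pass (log2 difference -0.64, SE 0.32, adjusted p = 0.083). Junction genes of the list did not move by like amounts. Dsp, the desmoplakin gene, rose without overlap from 208, 337 and 656 CPM to 1307, 1631 and 1793 CPM (log2 difference 2.14, SE 0.21, adjusted p = 5.6e-07), and Tjp1, a scaffold of tight junctions, from 57.5, 91.5 and 213 CPM to 374, 399.9 and 439.5 CPM (log2 difference 1.93, SE 0.25, adjusted p = 7.4e-06), also without overlap, whereas the tight junction genes Ocln (log2 difference 0.31, SE 0.12; -0.31 when scaled to pan-epithelial genes) and Cldn7 (log2 difference 0.63, SE 0.16) were kept.

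**Figure D4:**
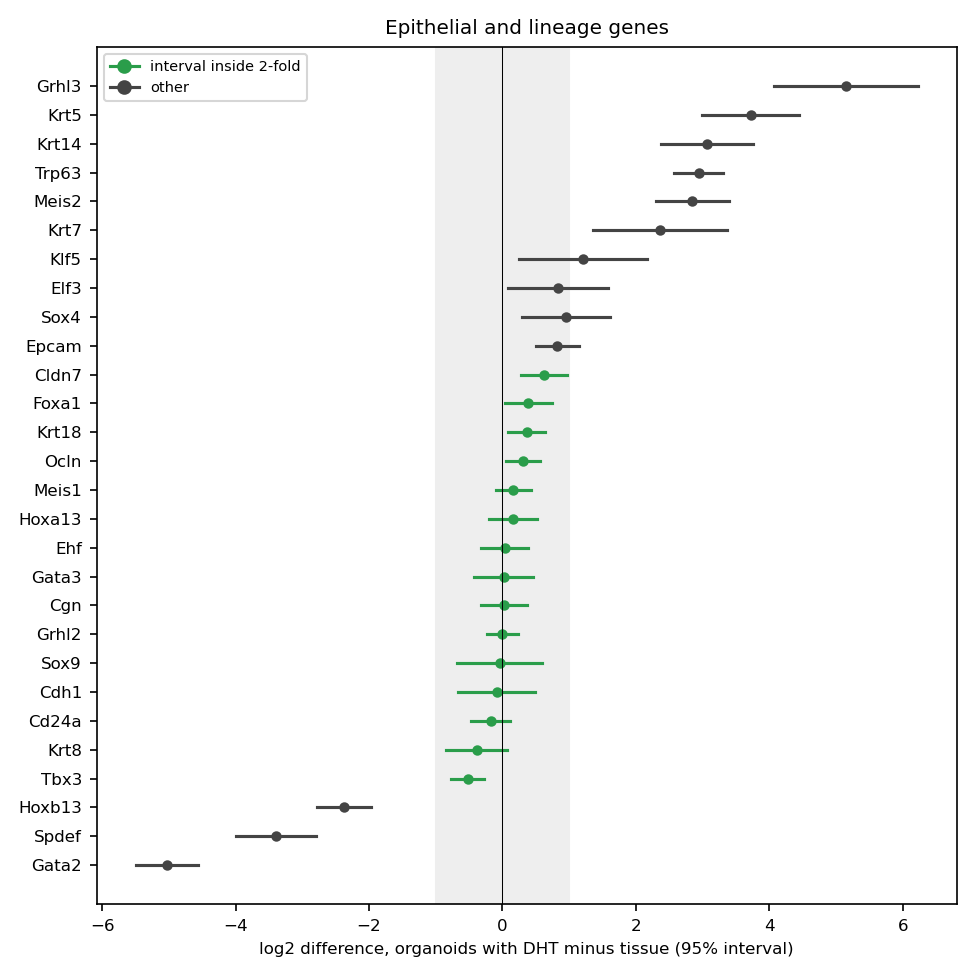
Log2 differences (organoids with DHT minus tissue, x axis) with 95% intervals for 28 epithelial and lineage genes; the grey band is 2-fold in both directions and green genes have their interval inside it. Foxa1, Grhl2, Ehf, Gata3, Sox9, Cdh1, Krt8 and Krt18 lie inside the band, Gata2, Spdef and Hoxb13 to its left, and Krt5, Krt14, Trp63 and Grhl3 to its right; scaled to pan-epithelial genes, Foxa1, Ehf, Hoxa13, Krt18 and Ocln are among those that fall below 0.

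Markers of luminal progenitors, the proximal luminal cells that can grow into organoids, did not move together. Of 16, 3 rose, 6 fell and 7 did not pass (median -0.37). Without tissue WT 2 and HET 1, 4 rose and 9 fell (median -0.52), and scaled to pan-epithelial genes 3 rose and 10 fell. Krt4 stood at 3.06, 398 and 604 CPM in tissue and 290.3, 320.0 and 435 CPM in organoids (log2 difference 0.022, SE 0.59, adjusted p = 0.97) and Wfdc2, a secreted protease inhibitor gene, at 0.804, 452 and 926 CPM in tissue and 329.9, 471 and 573 CPM in organoids (log2 difference 0.038, SE 0.67, adjusted p = 0.96); neither passed without the 2 libraries either (-0.24 and -0.19). In WT 2 these genes were nearly unread, at 3.06 CPM for Krt4 and 0.804 CPM for Wfdc2. Psca, a surface antigen gene, did not pass over all libraries (log2 difference -1.10, SE 0.50, adjusted p = 0.057) and fell without the 2 (log2 difference -1.54, adjusted p = 7.5e-07). Ly6a, the Sca-1 gene, did not pass (log2 difference -0.36, SE 0.37, adjusted p = 0.39) and fell without the 2 (log2 difference -0.73, adjusted p = 3.4e-05). The secreted chaperone gene Clu, the gene with most reads in 4 of the 6 tissue libraries, fell from 4510.2, 17939.9 and 27321 CPM to 404, 790.2 and 938 CPM (log2 difference -4.65, SE 0.26, adjusted p = 1.5e-09). Krt7 (log2 difference 2.36, SE 0.47, adjusted p = 3.8e-04), Cd44 (log2 difference 2.93, SE 0.48, adjusted p = 7.1e-05) and Lcn2 (log2 difference 2.24, SE 0.23, adjusted p = 7.2e-07) rose, each without overlap; Lcn2 encodes an iron-binding protein of innate defence.

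Basal cell genes were higher in organoids almost throughout. Of 21, 20 rose and 1 did not pass, with a median of 2.63, and in 20 no library overlapped (21.2% of all genes). The summed level was 857, 2235 and 2854 CPM in tissue and 8657, 9729 and 10821 CPM in organoids. Krt5, the basal keratin gene, stood at 41.3, 141 and 235 CPM in tissue and 1424, 1641 and 2166 CPM in organoids (log2 difference 3.72, SE 0.34, adjusted p = 2.1e-07), and its partner Krt14 at 12.6, 44.1 and 64.6 CPM in tissue and 267, 354 and 508 CPM in organoids (log2 difference 3.07, SE 0.32, adjusted p = 9.3e-07). Krt17 stood at 2.07, 5.52 and 8.72 CPM in tissue and 153, 192 and 242 CPM in organoids (log2 difference 5.22, SE 0.31, adjusted p = 2.8e-09). Only Krt15 was not called (log2 difference 0.45, SE 0.37, adjusted p = 0.28). The genes of the basement membrane anchor, laminin chains and the hemidesmosome that holds them, rose in all 7 members with a median of 2.22, among them Lama3 from 15.1, 22.4 and 54.4 CPM to 558, 704 and 751 CPM (log2 difference 4.53, SE 0.34, adjusted p = 3.1e-08), Lamb3 (log2 difference 3.75, SE 0.23, adjusted p = 5.3e-09) and Col17a1 (log2 difference 4.28, SE 0.31, adjusted p = 2.3e-08). The desmosomal cadherin gene Dsg3, at 0, 0.238 and 0.892 CPM in tissue, reached 70.9, 105 and 186 CPM (log2 difference 8.29, SE 0.61, adjusted p = 2.6e-08). The lowest of the 6 tissue values for most of these genes was in WT 2.

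Most genes of stratified and cornified epithelium were higher as well, many of them from low levels. Of 23 tested of 24, 18 rose and 2 fell (median 3.61), and without tissue WT 2 and HET 1, 4 fell. The summed level moved less, from 64.4, 1365 and 1721 CPM in tissue to 2113, 2363 and 2853 CPM in organoids. Much of the tissue sum was Sprr2a3, at 822.5 to 906.3 CPM in the 4 tissue libraries other than WT 2 and HET 1. Krt6a, a keratin gene of activated and stratified epithelium, went from 0.497, 13.8 and 22.98 CPM to 396, 464 and 736 CPM (log2 difference 5.34, SE 0.60, adjusted p = 1.8e-06). Ivl, which encodes involucrin of the cornified envelope, went from 0.344, 4.25 and 6.38 CPM to 25.3, 29.1 and 36.3 CPM (log2 difference 3.02, SE 0.37, adjusted p = 4.4e-06), and its crosslinking enzyme gene Tgm1 from 0.751, 1.36 and 2.64 CPM to 27.4, 30.6 and 52.6 CPM (log2 difference 4.58, SE 0.25, adjusted p = 1.6e-09). Krt6b and Sprr3 had no read in tissue and were at least 31.3-fold and 21.1-fold higher, with 3 reads over the 6 tissue libraries as the floor. The small proline-rich genes split: Sprr1a rose (log2 difference 4.05, SE 0.43, adjusted p = 1.1e-06), Sprr2a1 fell, though not without tissue HET 1 (log2 difference -2.06, SE 0.70, adjusted p = 0.016), and Sprr2a3 did not pass (log2 difference -0.36, SE 0.57, adjusted p = 0.58), though reads of these near-identical copies may be shared out uncertainly. Krt1, a keratin gene of terminally differentiated epidermis, fell (log2 difference -2.99, SE 0.43, adjusted p = 2.3e-05), so the list was not raised as a whole.

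Mitosis genes rose in all 38 of 38 members, with a median of 2.77, and 37 had no overlap between materials (21.2% of all genes). Scaled to pan-epithelial genes, 37 rose. Their summed level was 216, 332 and 408 CPM in tissue and 1892, 2248 and 3516 CPM in organoids. Mki67, which encodes the proliferation antigen Ki-67, went from 28.1, 37.4 and 56.2 CPM to 318, 356 and 577 CPM (log2 difference 3.29, SE 0.20, adjusted p = 3.3e-09), and Top2a, the topoisomerase of mitotic chromosomes, from 24.5, 27.5 and 36.7 CPM to 219, 305 and 454 CPM (log2 difference 3.44, SE 0.18, adjusted p = 7.6e-10). Cdk1, the mitotic kinase gene, stood at 6.74, 12.8 and 14.9 CPM in tissue and 42.6, 50.7 and 81.9 CPM in organoids (log2 difference 2.28, SE 0.19, adjusted p = 9.7e-08). Ccnb2, a cyclin that binds it, stood at 2.53, 6.25 and 8.65 CPM in tissue and 30.8, 34.5 and 53.6 CPM in organoids (log2 difference 2.77, SE 0.25, adjusted p = 2.3e-07). Cdc20, which turns on the ligase that ends mitosis, stood at 3.25, 8.85 and 11.8 CPM in tissue and 32.02, 40.9 and 69.7 CPM in organoids (log2 difference 2.53, SE 0.27, adjusted p = 9.1e-07). Over the list, mean log2 CPM was 5.91 to 6.03 in the 3 HET organoid libraries and 5.17 to 5.42 in the other 6. Of 30 genes of DNA replication 22 rose and 1 fell, with a median of 1.10; scaled to pan-epithelial genes, 17 rose and 5 fell. Rrm2, a subunit of ribonucleotide reductase, rose by 2.17 (SE 0.17, adjusted p = 4.4e-08), whereas the helicase subunit gene Mcm2 was kept (log2 difference -0.042, SE 0.10), as was the flap nuclease gene Fen1 (log2 difference -0.022, SE 0.16), and Tyms, the thymidylate synthase gene, fell (log2 difference -0.53, SE 0.12, adjusted p = 8.3e-04).

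Since these genes moved together, the 250 bases before the start of each were read from RefSeq (GRCm38.p6, 32 of 38 genes matched) for CCAAT, a box common in mitotic promoters, and for TTTGAA, the core of the cell cycle homology region. Either strand was counted, and the motifs may overlap. CCAAT was found in 25 of 32 (78.1%), against 37.5% of 27025 genes, and TTTGAA in 11 of 32 (34.4%), against 18.3%. A match is a description of letters, not a shown site. The promoters of the 3 genes just described each hold both motifs, which are in capitals; coordinates are Cdc20 chr4:118437344-118437593 (minus strand), Ccnb2 chr9:70421555-70421804 (minus strand) and Cdk1 chr10:69352913-69353162 (minus strand), each written along its gene from 5′ to 3′.
Cdc20: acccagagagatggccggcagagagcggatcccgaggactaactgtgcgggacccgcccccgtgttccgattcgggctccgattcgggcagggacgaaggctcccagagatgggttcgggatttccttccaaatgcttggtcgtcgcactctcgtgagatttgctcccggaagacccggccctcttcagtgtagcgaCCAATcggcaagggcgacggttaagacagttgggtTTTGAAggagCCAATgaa
Ccnb2: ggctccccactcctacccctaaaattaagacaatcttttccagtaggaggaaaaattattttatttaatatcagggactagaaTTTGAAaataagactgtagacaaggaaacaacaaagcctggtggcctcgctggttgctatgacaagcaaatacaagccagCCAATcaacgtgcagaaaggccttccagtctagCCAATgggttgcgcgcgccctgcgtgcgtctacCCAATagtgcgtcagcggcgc
Cdk1: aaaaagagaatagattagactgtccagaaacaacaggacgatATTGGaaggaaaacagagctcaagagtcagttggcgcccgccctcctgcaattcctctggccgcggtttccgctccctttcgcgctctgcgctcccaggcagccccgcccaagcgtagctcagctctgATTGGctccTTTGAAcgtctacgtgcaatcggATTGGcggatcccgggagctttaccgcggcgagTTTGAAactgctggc

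Of 25 genes of glycolysis and the hypoxia response, 23 rose and none fell, with a median of 2.18. The 23 had no overlap (21.2% of all genes). Their summed level was 4588, 8051 and 10145 CPM in tissue and 24627, 31908 and 39347 CPM in organoids. Slc2a1, the glucose transporter gene, stood at 52.1, 55.3 and 71.5 CPM in tissue and 208, 264 and 354 CPM in organoids (log2 difference 2.24, SE 0.11, adjusted p = 4.8e-10), and Ldha, which makes lactate, at 384, 549.8 and 666 CPM in tissue and 1396, 1813 and 2241 CPM in organoids (log2 difference 1.72, SE 0.15, adjusted p = 1.1e-07). Pgk1, a glycolytic kinase gene, stood at 261, 663 and 813 CPM in tissue and 2292, 3174 and 3842 CPM in organoids (log2 difference 2.38, SE 0.23, adjusted p = 4.2e-07). Members used as signs of low oxygen were among those that rose: Egln3, a prolyl hydroxylase of the hypoxia factor, went from 1.80, 62.3 and 107 CPM to 1674, 1769 and 1964 CPM (log2 difference 5.005, SE 0.61, adjusted p = 4.0e-06), Car9, a carbonic anhydrase gene, from 0, 0.999 and 2.71 CPM to 24.2, 33.6 and 35.1 CPM (log2 difference 5.08, SE 0.49, adjusted p = 3.7e-07), and Vegfa, the vessel growth factor gene, from 81.1, 126 and 158 CPM to 545, 683 and 871 CPM (log2 difference 2.48, SE 0.14, adjusted p = 2.0e-09). Pfkfb3 did not pass (log2 difference -0.20, SE 0.99, adjusted p = 0.86): tissue WT 2 held 1127 CPM, HET 1 held 336 CPM and the other 4 held 14.04 to 25.4 CPM. Without WT 2 and HET 1 it rose (log2 difference 2.76, adjusted p = 4.7e-08). The lowest tissue sum was also that of WT 2.

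ACGTG and GCGTG are the forms of the core that hypoxia-inducible factors bind. ACGTG was found in 15 of 24 matched promoters of this list (62.5%), against 18.5% of all genes, and GCGTG in 15 of 24 (62.5%), against 30.9%. The windows and strands are as above, and CACGTG, which is also the E-box of other factors, matches ACGTG on both strands. The promoters of Ldha, at chr7:46845554-46845803 (plus strand) for 1 of 2 starts in the RefSeq table, and of Slc2a1, at chr4:119108495-119108744 (plus strand), are shown because both genes rose without overlap. Matches are in capitals: the Ldha window shown holds ACGTG but no GCGTG, and the Slc2a1 window holds both.
Ldha: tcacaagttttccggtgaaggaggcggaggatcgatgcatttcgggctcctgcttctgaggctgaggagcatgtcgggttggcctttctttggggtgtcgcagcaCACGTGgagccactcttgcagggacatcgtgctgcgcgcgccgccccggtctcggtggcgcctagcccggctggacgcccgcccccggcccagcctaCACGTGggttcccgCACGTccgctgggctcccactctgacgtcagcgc
Slc2a1: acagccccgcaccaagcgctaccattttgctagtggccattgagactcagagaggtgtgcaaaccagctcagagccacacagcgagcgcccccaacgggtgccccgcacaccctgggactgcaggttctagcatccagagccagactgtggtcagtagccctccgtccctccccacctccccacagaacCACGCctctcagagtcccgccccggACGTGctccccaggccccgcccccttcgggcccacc

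Cholesterol synthesis genes were higher in 20 of 25, with 1 lower and a median of 1.54; 4 were lower without tissue WT 2 and HET 1, and 3 when scaled to pan-epithelial genes. Hmgcs1, an early enzyme gene of the pathway, stood at 47.2, 55.04 and 60.7 CPM in tissue and 297, 342 and 435 CPM in organoids (log2 difference 2.64, SE 0.11, adjusted p = 1.6e-10). Sqle, the squalene epoxidase gene, rose from 27.4, 43.99 and 50.1 CPM to 115, 145 and 170.4 CPM (log2 difference 1.77, SE 0.14, adjusted p = 3.9e-08), and Insig1, a sterol-responsive feedback gene, from 29.6, 41.6 and 50.4 CPM to 132, 176 and 248 CPM (log2 difference 2.11, SE 0.16, adjusted p = 4.3e-08). Ebp, a sterol isomerase gene, fell (log2 difference -0.93, SE 0.11, adjusted p = 3.6e-06). Mvk, Tm7sf2 and Dhcr7 did not pass.

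Pathways that the medium acts on moved in different directions. EGF binds a receptor that signals through the MAPK cascade, and all 18 genes that read out this cascade rose, with a median of 3.14. Of these, 17 had no overlap (21.2% of all genes). The 18 include the EGF family ligand genes Areg, Ereg, Hbegf and Epgn, which are counted again below. Dusp6, a phosphatase that limits the cascade, stood at 7.65, 13.8 and 23.9 CPM in tissue and 148, 163 and 193 CPM in organoids (log2 difference 3.55, SE 0.26, adjusted p = 2.4e-08), and Etv4, a transcription factor gene the cascade induces, at 0.630, 1.16 and 2.22 CPM in tissue and 32.8, 38.5 and 48.7 CPM in organoids (log2 difference 5.06, SE 0.27, adjusted p = 1.2e-09). Fosl1 stood at 0.0383, 0.0992 and 0.469 CPM in tissue and 6.55, 6.90 and 7.97 CPM in organoids (log2 difference 5.18, SE 0.43, adjusted p = 9.5e-08). Of 12 BMP targets 7 fell and 3 rose (median -2.37). None rose when scaled to pan-epithelial genes, and 5 rose without tissue WT 2 and HET 1, with 7 lower in both. Id1, the inhibitor of differentiation, stood at 32.5, 83.8 and 146 CPM in tissue and 9.26, 12.02 and 16.02 CPM in organoids (log2 difference -2.67, SE 0.29, adjusted p = 1.1e-06) and Id3 at 17.2, 56.7 and 95.6 CPM in tissue and 5.04, 6.08 and 7.68 CPM in organoids (log2 difference -3.24, SE 0.29, adjusted p = 2.1e-07). Smad7, a feedback inhibitor shared with TGF-beta signals, rose (log2 difference 0.73, SE 0.15, adjusted p = 5.8e-04). The medium held EGF and the BMP antagonist Noggin, and the part of either in these differences was not tested.

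Wnt targets gave no common direction. Of 15, 4 rose and 8 fell (median -0.62), and without tissue WT 2 and HET 1, 7 rose and 8 fell; scaled to pan-epithelial genes, 2 rose and 9 fell. Axin2, the feedback gene most used as a readout, stood at 7.995, 13.6 and 72.1 CPM in tissue and 15.4, 24.5 and 44.9 CPM in organoids (log2 difference 0.46, SE 0.33, adjusted p = 0.22), and without the 2 libraries it rose (log2 difference 1.25, adjusted p = 4.1e-05). The stem cell receptor gene Lgr5 fell from 0.567, 1.01 and 3.87 CPM to 0.0284, 0.115 and 0.176 CPM (log2 difference -3.73, SE 0.39, adjusted p = 8.6e-07), while Lgr6 rose from 0.191, 0.254 and 0.518 CPM to 3.06, 4.08 and 7.33 CPM (log2 difference 3.99, SE 0.21, adjusted p = 1.2e-09). Genes that TGF-beta induces were higher in 12 of 18, with 1 lower and a median of 2.22, in a medium that held an inhibitor of TGF-beta receptors. Skil, a feedback gene of the pathway, rose from 14.6, 25.1 and 58.3 CPM to 117, 149 and 226 CPM (log2 difference 2.44, SE 0.28, adjusted p = 2.5e-06). Pmepa1 (log2 difference 0.061, SE 0.33) and Tgfbi (log2 difference 0.38, SE 0.22) were kept, and Tgfb1i1 fell (log2 difference -4.42, SE 0.39, adjusted p = 1.4e-07). Several members also respond to other signals: Cdkn1a is a p53 target and Ccn2 a YAP target. Of 13 YAP targets, which respond to stiffness and spreading, 10 rose and none fell (median 2.35), led by Ccn1 at 8.15, 10.1 and 14.03 CPM in tissue and 146, 166 and 244 CPM in organoids (log2 difference 4.12, SE 0.18, adjusted p = 1.7e-10).

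Growth factor genes moved in both directions. The 3 FGF genes (Fgf2, Fgf7, Fgf10), the 3 IGF and HGF genes (Igf1, Igf2, Hgf) and the 3 R-spondin genes all fell. Fgf10, a stromal factor for prostate growth, stood at 1.02, 1.53 and 7.69 CPM in tissue and 0, 0 and 0.0427 CPM in organoids (log2 difference -6.81, SE 0.62, adjusted p = 2.1e-07), and Igf1 at 2.41, 5.34 and 17.1 CPM in tissue and 0, 0.0492 and 0.176 CPM in organoids (log2 difference -6.51, SE 0.61, adjusted p = 3.0e-07). Rspo3, an agonist of Wnt signals, stood at 2.92, 3.81 and 29.3 CPM in tissue with no read in organoids (at least 916-fold lower). All 4 secreted frizzled-related genes, which bind Wnts, fell as well, as did the chemokine gene Cxcl12, with 3 reads over all organoids and a tissue mean of 14.1 CPM. Shh, a ligand that epithelium sends to stroma, fell from 2.58, 3.49 and 6.59 CPM to 0, 0 and 0.0567 CPM (log2 difference -7.76, SE 0.55, adjusted p = 1.9e-08).

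EGF family ligands rose in 6 of 7 genes (median 4.35). Areg, Ereg, Hbegf and Epgn of this family are also among the 18 MAPK readout genes above, so the 2 results share members. Areg, which encodes amphiregulin, stood at 0.497, 2.73 and 5.62 CPM in tissue and 127, 159 and 172 CPM in organoids (log2 difference 5.82, SE 0.35, adjusted p = 3.9e-09), and Ereg, which encodes epiregulin, at 0.121, 0.469 and 1.06 CPM in tissue and 43.8, 57.8 and 97.5 CPM in organoids (log2 difference 6.71, SE 0.39, adjusted p = 2.8e-09). Hbegf stood at 7.84, 11.6 and 14.5 CPM in tissue and 93.9, 112 and 121 CPM in organoids (log2 difference 3.31, SE 0.14, adjusted p = 1.4e-10). Nrg4 fell (log2 difference -4.37, SE 0.53, adjusted p = 3.8e-06). Of 9 tested Wnt genes 4 rose and 3 fell: Wnt7a (0, 0.0107 and 0.170 CPM to 4.34, 6.41 and 7.80 CPM; log2 difference 7.39, SE 0.61, adjusted p = 7.8e-08), Wnt10a (log2 difference 3.72, SE 0.38, adjusted p = 6.5e-07), Wnt7b (log2 difference 1.48, SE 0.09, adjusted p = 5.1e-09) and Wnt11 (log2 difference 3.27, SE 0.47, adjusted p = 2.0e-05) were higher, and Wnt4 (log2 difference -1.78, SE 0.29, adjusted p = 6.8e-05), Wnt5b (log2 difference -3.03, SE 0.51, adjusted p = 8.6e-05) and Wnt2 were lower. Wnt2, at 3.57, 4.69 and 6.16 CPM in tissue, had 1 read in organoids, a ratio of 1548-fold (95% interval 277 to 61210). The list of 40 secreted ligands and antagonists does not hold Areg, Ereg, Hbegf or Epgn. Of its 36 tested members 8 rose and 22 fell, and without tissue WT 2 and HET 1, 12 of 35 rose and 21 fell. The summed level of this list, which leaves out those genes, overlapped. It was 376, 402 and 449.9 CPM in tissue and 369.8, 384 and 439.8 CPM in organoids.

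Receptors for these ligands were mostly read in organoids. Of 35, 18 rose and 10 fell (median 0.61), a balance that became 10 and 13 when scaled to pan-epithelial genes. Egfr, the receptor of EGF and amphiregulin, stood at 22.5, 46.97 and 106 CPM in tissue and 177, 196 and 216 CPM in organoids (log2 difference 1.89, SE 0.25, adjusted p = 8.4e-06), Fgfr2, the receptor of Fgf7 and Fgf10, at 42.6, 50.4 and 85.8 CPM in tissue and 158, 210.4 and 230.4 CPM in organoids (log2 difference 1.84, SE 0.15, adjusted p = 5.5e-08), and Met, the receptor of Hgf, at 41.2, 66.4 and 139 CPM in tissue and 174, 211 and 246 CPM in organoids (log2 difference 1.52, SE 0.23, adjusted p = 4.0e-05). Each was higher in every organoid library, while the ligand genes named for Fgfr2 and Met fell. Erbb2 was kept (log2 difference -0.31, SE 0.16), and Erbb4, a receptor of neuregulins, at 0.765, 2.36 and 6.25 CPM in tissue, had no read in organoids (at least 298-fold lower). Among frizzled receptors of Wnts, Fzd7 rose from 12.7, 14.8 and 25.1 CPM to 138, 149 and 181 CPM (log2 difference 3.14, SE 0.17, adjusted p = 1.4e-09) and Fzd3 fell from 15.7, 20.9 and 30.3 CPM to 0.496, 0.704 and 1.29 CPM (log2 difference -4.78, SE 0.23, adjusted p = 4.5e-10). Of BMP receptors, Bmpr1b fell from 38.2, 45.00 and 119.8 CPM to 0.235, 1.05 and 1.45 CPM (log2 difference -5.89, SE 0.35, adjusted p = 3.6e-09), while Bmpr1a rose (log2 difference 0.98, SE 0.19, adjusted p = 3.5e-04).

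**Figure D5:**
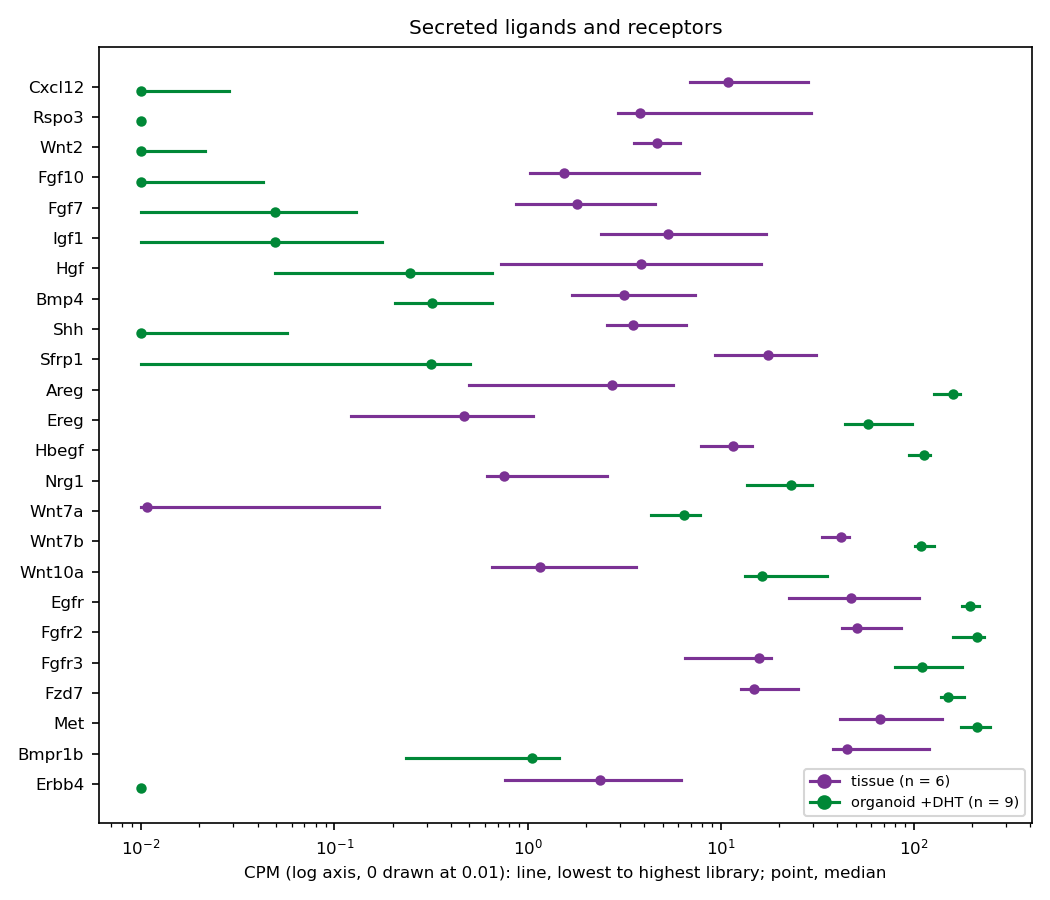
CPM on a log axis for 24 genes of secreted ligands and receptors, with the lowest to highest library as a line and the median as a point, for tissue (n = 6) and organoids with DHT (n = 9); 0 is drawn at 0.01. Cxcl12, Rspo3, Wnt2, Fgf10, Fgf7, Igf1, Hgf, Bmp4, Shh and Sfrp1 are lower in every organoid library, and Areg, Ereg, Hbegf, Nrg1, Wnt7a, Wnt7b, Wnt10a, Egfr, Fgfr2, Fgfr3, Fzd7 and Met are higher in every one, while Bmpr1b and Erbb4 are lower in every one.

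Genes of the p53 response and of homologous recombination were higher too. Of 20 p53 targets 17 rose and none fell (median 1.54); scaled to pan-epithelial genes, 13 rose and 2 fell. Cdkn1a, the cell cycle inhibitor p21, stood at 17.6, 112 and 178 CPM in tissue and 445, 624 and 655 CPM in organoids (log2 difference 2.54, SE 0.33, adjusted p = 8.8e-06), and Mdm2, which feeds back on p53, at 47.99, 61.9 and 78.8 CPM in tissue and 136, 154 and 176 CPM in organoids (log2 difference 1.32, SE 0.12, adjusted p = 2.1e-07). Bax, an effector of cell death, did not pass (log2 difference -0.44, SE 0.29, adjusted p = 0.18). Of 26 homologous recombination genes 18 rose and 2 fell (median 0.97); scaled to pan-epithelial genes, 12 rose and 3 fell. Beside Brca1, its partner gene Bard1 stood at 0.612, 1.84 and 2.16 CPM in tissue and 5.82, 7.73 and 10.7 CPM in organoids (log2 difference 2.25, SE 0.23, adjusted p = 6.7e-07) and Brca2 at 3.98, 5.31 and 5.91 CPM in tissue and 7.85, 9.33 and 12.3 CPM in organoids (log2 difference 0.91, SE 0.15, adjusted p = 5.6e-05; -0.79 with offsets for effective transcript length).

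The 12 largest rises among called genes over 20 CPM on average in either material, without overlap, held several genes of surface epithelium and alarm signals. Crnn, which encodes cornulin of squamous epithelium, went from 0, 0.0548 and 0.128 CPM to 55.9, 87.5 and 153 CPM (log2 difference 10.25, SE 0.33, adjusted p = 1.6e-11). Il1a, an alarmin cytokine gene, went from 0.148, 0.311 and 0.679 CPM to 229, 258 and 378 CPM (log2 difference 9.57, SE 0.36, adjusted p = 4.3e-11), and Ptgs2, the inducible cyclooxygenase gene, from 0.277, 0.567 and 9.53 CPM to 355, 672 and 949.9 CPM (log2 difference 8.16, SE 0.93, adjusted p = 2.0e-06). The chemokine gene Ppbp (log2 difference 9.73, SE 0.40, adjusted p = 9.4e-11), the epithelial cytokine gene Tslp (log2 difference 7.66, SE 0.25, adjusted p = 1.8e-11), Hmga2, a chromatin protein gene of growing cells (log2 difference 8.63, SE 0.24, adjusted p = 5.0e-12), Clca2 (log2 difference 7.90, SE 0.29, adjusted p = 4.3e-11), Calcb (log2 difference 9.003, SE 0.30, adjusted p = 2.0e-11) and the protease gene Tmprss11e (log2 difference 7.23, SE 0.49, adjusted p = 1.2e-08) were among them, beside Dsg3 above. Another, Eif4a-ps4 (log2 difference 8.12, SE 2.08, adjusted p = 0.0028), is a processed pseudogene whose reads may belong to its parent gene, and it is uncertain. The 12 largest falls included Svs2, Svs4, Svs5 and Pate4, whose size rests on tissue WT 2 and HET 1 (log2 differences of -6.56, -8.63, -7.91 and -6.00 without them), Pbsn, Defb50, Msmb and Des above, and Tcaf3, Sbpl and Hbb-bs. Hbb-bs, a haemoglobin gene of blood, at 30.1, 67.7 and 128 CPM in tissue, had no read in organoids (at least 7819.9-fold lower).

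Few differences between organoids and tissue were called as dependent on the genotype label. In a fit with interaction terms, 32 genes (0.182%) differed between HET and WT and 33 (0.187%) between KO and WT in their organoid-tissue difference. With 2 tissue libraries a genotype these counts were unstable: 2545 and 1847 genes had an unadjusted p below 0.05, DESeq2 called 802 and 373, and and counts moved further when single libraries were left out: without tissue WT 1 they were 2892 and 2491. Spock1, a proteoglycan gene, was among the 5 largest in both: its mean was 42.2 CPM in HET, 53.7 in KO and 0.267 in WT organoids, against 2.74, 2.38 and 4.35 CPM in tissue (interactions of 7.89 and 8.44, adjusted p = 0.00033 and 0.00025). Arntl2, a clock gene, showed the reverse, at 8.23 CPM in WT, 1.03 in HET and 1.19 in KO organoids with 1.41 to 1.98 CPM in tissue (interactions of -3.47 and -3.09, adjusted p = 0.019 and 0.021). Whether the organoid lines of 1 genotype label come from 1 mouse is not given, so a difference between lines and one between genotypes cannot be told apart.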

How the data were processed

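RNA-seq of 15 of 24 mouse libraries was used: 6 of anterior prostate tissue and 9 of organoids with DHT. RNA was taken with a PureLink kit and sequenced from standard Illumina libraries, per the labels' protocols. The authors deposited Salmon 0.13.1 tables of estimated counts per transcript, per the submitters' processing notes. Those notes name build hg38, while every transcript ID is a mouse Ensembl ID; annotation release, strand and Salmon settings are not given in the sources used here. The deposited TPM of Salmon, per the file headers, were not used. With strand unknown, overlapping genes cannot be told apart. Deposited estimated counts were summed per gene through the GENCODE M21 map (GRCm38) and rounded. In each library 922 transcripts had no match, with 0.227 to 0.327% of reads.

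Counts of 17626 genes that passed edgeR's expression filter were fitted with edgeR 4.0.16 (R 4.3.3): TMM scaling, material and genotype label as terms, and the quasi-likelihood test with Benjamini-Hochberg adjustment and a threshold of 0.05. Genotype differences came from interaction terms. On simulated counts of the same 17626 genes, 38 of 50 genes lowered 4-fold and 41 of 50 raised 4-fold were called the right way, 24 and 29 of 50 at 2-fold, and 7 of 17426 unchanged genes were called. The simulation gave both materials the same spread per gene and changed few genes, equally many up as down. In the data tissue varied more than organoids and 74.5% of genes passed, so these rates need not hold for the real fit. Members and the 41 gene lists were chosen with earlier results of these data known. Named genes were Brca1, steroid receptors, the 12 largest rises and falls over 20 CPM without overlap, up to 6 members of each list with the highest mean CPM, members of roles described, and the 5 largest genotype differences each way; other list members were named after their values were seen, and some genes of this rule are not reported here. Promoters came from the RefSeq table (GRCm38.p6). Intervals of ratios with few reads cover counting error only.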

Additional observations from a re-analysis of the deposited data

Results flagged for a closer look

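In 14 of 96 groups of libraries tested, 1 library stood far outside the others by Dixon's criterion, where chance gives about 1 in 20. Tissue WT 2 gave 8 of these, as mean log2 CPM of a list: prostate lineage factors 4.57 (others 5.1 to 5.17), pan-epithelial genes 7.08 (7.89 to 8.12), luminal progenitor genes 4.82 (7.93 to 8.45), squamous genes -1.44 (0.218 to 0.752), hypoxia and glycolysis genes 5.46 (6.65 to 7.05), and interferon genes 2.26 (4.81 to 6.32). It was high for the unfolded protein response at 8.66 (7.05 to 7.29) and for Wnt targets at 3.28 (1.81 to 2.29). Tissue HET 1 stood out in 3: lymphocyte genes 1.74 (-0.422 to 0.257), prostate secretory genes 3.39 (4.93 to 5.75) and receptors of niche ligands 5.31 (4.42 to 4.68). Adipocyte genes were low in tissue HET 2 at -0.52 (1.83 to 3.06). Organoid WT 1, the library with the fewest reads, was low for luminal progenitor genes at 6.81 (7.11 to 7.25) and for antigen presentation genes at 1.95 (2.38 to 2.83).

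The organoid-tissue difference also differed between genotype labels, by the interaction test of edgeR, in genes below; values are differences of log2 differences and each rests on 2 tissue libraries a group. Between HET and WT these were Gm10184 (-12.83), Rps4l (-4.14), Arntl2 (-3.47), Egr3 (-2.91), Ly6k (-2.79), Tmem45a (3.46), Gm3608 (5.49), Rhoj (6.13), Eno1b (6.86) and Spock1 (7.89). Between KO and WT they were Gm10184 (-13.07), Fcgr3 (-5.43), Prr9 (-4.81), Gpx2-ps1 (-3.33), Arntl2 (-3.09), Bend7 (3.68), Fam19a5 (6.04), Rhoj (6.05), Ifi205 (6.43) and Spock1 (8.44). Eno1b had a mean of 654 CPM in HET organoids and 5.48 and 5.53 CPM in WT and KO organoids. Gm10184 was at 0 in WT tissue, with 27.8 and 48.6 CPM in HET and KO tissue and 55.9 to 100.2 CPM in organoids, so its fitted values are no bounds. Gm3608, Rps4l and Gpx2-ps1 are annotated as pseudogenes and Eno1b resembles Eno1, so reads of these genes may be split with near copies and the values are uncertain.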

How the results depend on the processing

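Under 16 planned and 2 later alternatives (leaving out WT 2, HET 1 and organoid WT 1 together, and protein-coding genes only, both chosen after seeing the data), 30 of 188 counts of genes moved by more than 1.5 times, 10 of 1200 list medians and 11 of 7098 values of named genes changed sign, and 80 of the latter lost and 121 gained a call. A further 141 of the 1200 list medians were flagged as moved without a change of sign. Scaled to pan-epithelial genes, 2780 genes were higher and 766 at least 4-fold higher, and differences turned negative for the medians of the androgen response (-0.302), lineage factors (-0.165) and pan-epithelial genes (-0.298) and for Ehf (-0.619), Foxa1 (-0.165), Hoxa13 (-0.410), Krt18 (-0.253), Ocln (-0.309) and Stk39 (-0.450). Rises of Erbb3, Mbp, Epcam, Cldn7, Twist2, Klf5, Brca2, Bmpr1a, Smad7, Notch3 and Txnrd1 lost their call under that scaling. Over 1 CPM in at least 3 libraries, 2201 genes were at least 4-fold lower. Offsets for effective length reversed Brca2 (-0.790) and the secretory pathway median (0.018), and voom weights reversed Fcgr3 (1.188). Without tissue WT 2 and HET 1, and without organoid WT 1 as well, the unfolded protein response median was 0.014 and 0.032, the secretory pathway median 0.062 and 0.102, and Pfkfb3 2.761 and 2.834. Leaving out single libraries gave medians of -0.426 to 0.020 for the unfolded protein response and -0.131 to 0.082 for the secretory pathway, with the highest without tissue WT 2, and of -0.728 to 1.549 for the difference of Pfkfb3, again highest without WT 2. Genotype differences were 802 (HET) and 373 (KO) genes by DESeq2, and 3 to 2892 and 8 to 2491 when single libraries were left out; the highest were without tissue WT 1, where the lone WT 2 is taken to vary like the other groups. Other single libraries that moved either count by over 1.5 times were tissue WT 2, both tissue HET libraries, tissue KO 1 and all organoid libraries. With a replicate block, 21 genes differed between HET and WT, and 5544 were higher and 6950 lower in organoids. Deviations of same-numbered tissue and organoid libraries had r of -0.0021 to 0.11. With 2 tissue libraries a genotype, these values cannot tell whether a number links an animal and a culture. The causes of these changes were not tested. Precision is limited by 2 tissue libraries a genotype: the coefficient of biological variation was 0.502 within tissue and 0.141 within organoids. Genes with few reads in organoids have only bounds, and transcripts that share sequence have estimated, not observed, counts.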

Other observations

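Genes that protect against oxidants moved in both directions. Of 22 of the NRF2 and glutathione list 13 rose and 5 fell (median 0.57), against 9 and 9 (median 0.04) when scaled to pan-epithelial genes and 9 and 7 when scaled to library totals. Nqo1, a quinone reductase gene, stood at 0.832, 1.56 and 2.41 CPM in tissue and 37.3, 50.8 and 57.7 CPM in organoids (log2 difference 4.96, SE 0.25, adjusted p = 7.6e-10). Slc7a11, the cystine importer gene, stood at 6.74, 8.52 and 26.6 CPM in tissue and 67.3, 89.5 and 137 CPM in organoids (log2 difference 2.91, SE 0.28, adjusted p = 3.9e-07). Gpx3, a secreted glutathione peroxidase gene, fell from 99.1, 773 and 1790 CPM to 0.545, 1.60 and 2.29 CPM (log2 difference -9.31, SE 0.77, adjusted p = 8.5e-08). Txnrd1, a thioredoxin reductase gene, rose within 2-fold (log2 difference 0.61, SE 0.16, adjusted p = 0.0034). Every organoid library lay above every tissue library for Nqo1 and Slc7a11 and below for Gpx3, and the medium held N-acetylcysteine, whose part was not tested.

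Genes of protein folding and export did not share a direction. Among all genes tested 32.4% rose and 42.1% fell, so counts near these shares say little about a list. Of 25 genes of the unfolded protein response 5 rose and 11 fell (median -0.35), and without tissue WT 2 and HET 1, 9 rose and 12 fell; scaled to pan-epithelial genes, 2 rose and 14 fell. Sdf2l1, a chaperone partner gene of the endoplasmic reticulum, stood at 49.5, 115 and 303 CPM in tissue and 12.7, 20.1 and 26.02 CPM in organoids (log2 difference -2.75, SE 0.28, adjusted p = 7.0e-07), and Trib3, a stress-induced gene, at 2.74, 6.65 and 12.7 CPM in tissue and 19.9, 27.7 and 43.5 CPM in organoids (log2 difference 2.10, SE 0.27, adjusted p = 7.3e-06). Of 26 genes of the secretory pathway 5 rose and 11 fell (median -0.07). Scaled to pan-epithelial genes 1 rose and 16 fell (median -0.73), and without tissue WT 2 and HET 1, 9 rose and 11 fell (median 0.06). Creb3l1, a transcription factor gene of secretory cells, went from 5.24, 8.93 and 15.3 CPM to 0.113, 0.213 and 0.595 CPM (log2 difference -5.30, SE 0.34, adjusted p = 6.8e-09), and Agr2, a disulfide isomerase gene of secretory cells, from 217, 438 and 919.7 CPM to 87.8, 148 and 230.5 CPM (log2 difference -1.75, SE 0.24, adjusted p = 1.5e-05). Hspa5, the main chaperone of the list, did not pass (log2 difference -0.22, SE 0.28, adjusted p = 0.5).

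Of 24 interferon-induced genes 3 rose, 7 fell and 14 did not pass (median -0.51), against 32.4% higher and 42.1% lower over all genes. Tissue WT 2 was the lowest tissue library. Without tissue WT 2 and HET 1, 2 rose and 13 fell, and scaled to pan-epithelial genes 1 rose and 14 fell. Ifit3 fell (log2 difference -2.11, SE 0.52, adjusted p = 0.0021) and Ddx58, a sensor of viral RNA, rose (log2 difference 1.55, SE 0.23, adjusted p = 2.5e-05). Of 16 immediate early genes, which are induced within minutes of a signal or of handling, 12 rose and 1 fell (median 1.29). Egr1 stood at 11.5, 20.7 and 54.4 CPM in tissue and 96.03, 104 and 123 CPM in organoids (log2 difference 2.02, SE 0.24, adjusted p = 3.4e-06), and Klf2, which is abundant in endothelium, fell (log2 difference -3.18, SE 0.19, adjusted p = 3.5e-09).

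Of 13 genes encoded by mitochondrial DNA 2 rose, 4 fell and 7 did not pass (median -0.02), against 32.4% higher and 42.1% lower over all genes.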
